A study of Zea mays with 12 samples.

Results

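The 9 genes described here code for the enzymes that set the supply and removal of active gibberellin: 4 GA20-oxidase genes (GRMZM2G021051, GRMZM2G368411, GRMZM2G060940 and GRMZM2G049418) and 5 GA2-oxidase genes (GRMZM2G152354, GRMZM2G006964, GRMZM2G022679, GRMZM2G177104 and GRMZM2G031432). They were taken by gene identifier from the 39514 genes of each deposited table, and their assignment to a family comes with that identifier list. All 9 were found in both tables; neither family is claimed to be complete. The study sequenced mRNA of 12 maize (Zea mays) libraries, 3 for each combination of genotype and tissue. The genotypes were Sdw3 and N18, the line it is set against, both at vegetative stage V7. The tissues were the growing stem segment between leaf 7 and leaf 8 (the developing internode) and the ligular region of leaves 8 and 9, where the ligule forms between sheath and blade. The labels name Sdw3 and N18 only as cultivars, with no allele, dose or genetic background, and do not say whether the libraries of a group came from separate plants.

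Gibberellins are diterpenoid hormones that promote the elongation of stems and leaves. GA20-oxidases carry out the oxidation steps that turn inactive intermediates into the direct precursors of the active hormones, which GA3-oxidases then complete; GA2-oxidases hydroxylate active gibberellins or their precursors and so inactivate them. Loss of GA20-oxidase activity is known for short stature in cereals, and in maize the meristem homeobox protein KNOTTED1 is known to act on a GA2-oxidase gene.

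The authors deposited 1 combined FPKM per gene, genotype and tissue. FPKM is a fragment count scaled to gene length and library size, so levels of different genes can be set side by side. Values per library are not in these tables: the spread between libraries and the read depth behind each level are unknown, and the order of genes of similar level within a group cannot be tested. A gene counts as called where the adjusted p of the authors, written q, is under 0.05. Approximate 95% intervals of a change were derived from the authors' test score. The 2 tables were scaled separately, so a level in one tissue against the other is a description. Markers were found in the tissue they are known for. The ligule gene lg1 was listed at 15.0 in Sdw3 and 14.9 in N18 ligular region, against 0.183 and 0.125 in Sdw3 and N18 internode, while the stem and meristem gene kn1 was listed at 180 in Sdw3 and 172 in N18 internode and at 0 in the ligular region of both genotypes.

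**Figure D1:**
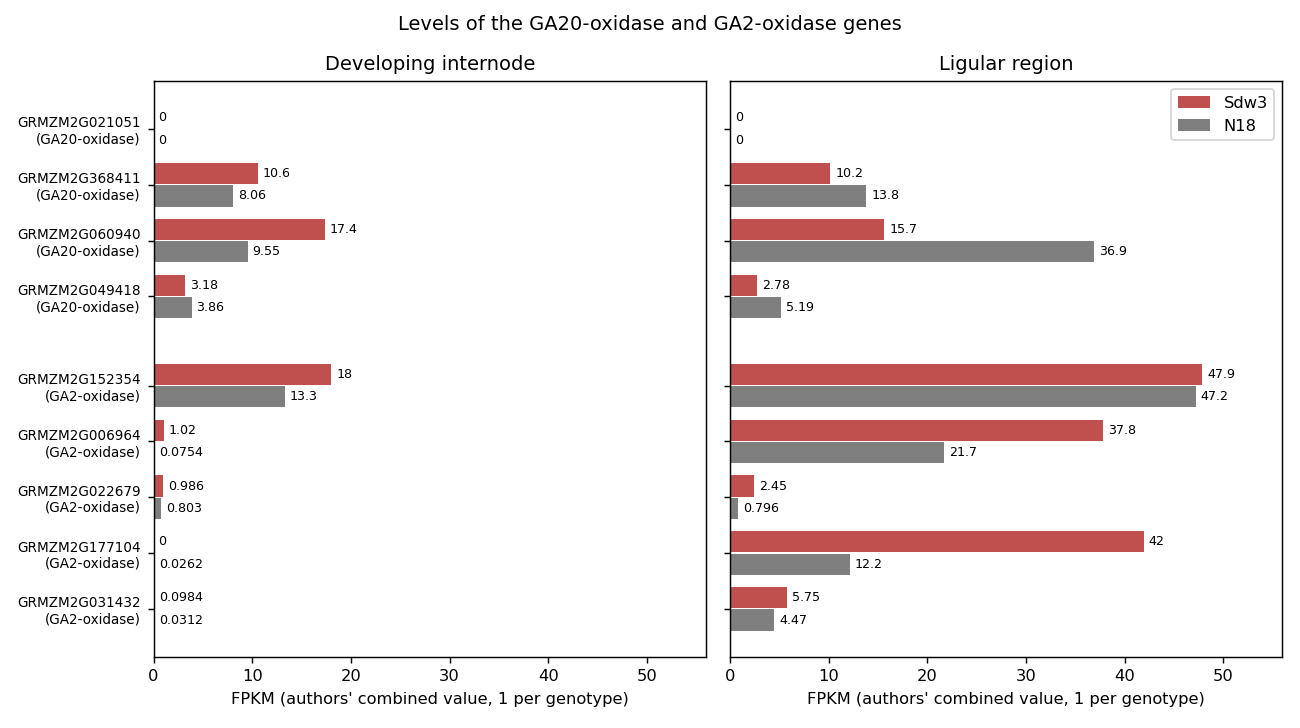
Horizontal bars give the authors' combined FPKM of each of the 9 genes in Sdw3 (red) and N18 (grey), in the developing internode (left panel) and the ligular region (right panel), with the value at the end of each bar. In the ligular region GRMZM2G060940 stands at 15.7 in Sdw3 and 36.9 in N18, whereas GRMZM2G177104 stands at 42.0 in Sdw3 and 12.2 in N18.

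In the ligular region the called GA20-oxidase genes were all lower in Sdw3 and the called GA2-oxidase genes all higher. All 3 GA20-oxidase genes that were tested fell, and of the 5 GA2-oxidase genes 3 rose, 0 fell and 2 were not called. Of all 22721 genes tested in this tissue, 26.8% were called, 13.1% higher and 13.7% lower in Sdw3, against 6 of the 8 members tested. The median log2 ratio of Sdw3 over N18 was -0.90 for the 3 tested GA20-oxidase genes, 0.80 for the 5 GA2-oxidase genes and close to 0 (-0.0016) for all genes tested. Every ligular call below had the smallest q of the authors' deposited table for this tissue, 0.000398, unless another q is given.

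GRMZM2G060940 (chromosome 5, 18192141 to 18193721) was the most abundant of the GA20-oxidase genes in the ligular region. Its FPKM was 15.7 in the Sdw3 and 36.9 in the N18 ligular region, a fall of 2.36-fold. On the log2 scale the change was -1.24, with an approximate 95% interval of -1.48 to -0.99. By level it lay above 76.8% of all genes in Sdw3 and above 89.2% in N18. The size of its decrease ranked 461st among the 3106 genes that were called lower in this tissue and have a ratio, whose median decrease was 1.58-fold.

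GRMZM2G049418 (chromosome 8, 164487835 to 164490694), a GA20-oxidase gene of lower level, was listed at 2.78 in Sdw3 and 5.19 in N18. It fell 1.87-fold (q = 0.000754 in the authors' deposited table). On the log2 scale this was -0.90, with an approximate 95% interval of -1.31 to -0.49. GRMZM2G368411 (chromosome 3, 170942900 to 170945698) was listed at 10.2 in Sdw3 and 13.8 in N18, a smaller decrease of 1.36-fold (q = 0.0165 in the authors' deposited table). Its log2 change was -0.44, with an approximate 95% interval of -0.73 to -0.16. The remaining GA20-oxidase gene, GRMZM2G021051 (chromosome 2, 234425721 to 234427421), was listed at 0 in all 4 groups and was not tested in either tissue. The genes nearest to it on either side, GRMZM2G037614 and GRMZM2G020898, were listed at between 12.8 and 19.1 in the 4 groups.

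Among the GA2-oxidase genes, GRMZM2G177104 (chromosome 7, 725315 to 726416) had the largest ligular increase. Its FPKM was 42.0 in the Sdw3 and 12.2 in the N18 ligular region, a rise of 3.45-fold, with an approximate 95% interval of 2.84- to 4.19-fold. It ranked 179th by size among the 2969 genes called higher that have a ratio, and by level it lay above 90.7% of all genes in Sdw3 and above 72.1% in N18. GRMZM2G022679 (chromosome 3, 196126845 to 196128900) was listed at 2.45 in Sdw3 and 0.796 in N18 and rose 3.08-fold, with a wider approximate 95% interval of 2.01- to 4.71-fold. That ratio rests on a low N18 level: with 1 added to both FPKM values the log2 ratio was 0.94 in place of 1.62.

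GRMZM2G006964 (chromosome 2, 28389254 to 28392075) rose 1.74-fold, at 37.8 in Sdw3 and 21.7 in N18, with an approximate 95% interval of 1.48- to 2.05-fold. GRMZM2G152354 (chromosome 8, 23992336 to 23994920), the most abundant member of either family, was not called in the ligular region. Its FPKM was 47.9 in Sdw3 and 47.2 in N18 (q = 0.931 in the authors' deposited table), and its approximate 95% interval ran from 0.868- to 1.18-fold. GRMZM2G031432 (chromosome 3, 3994137 to 3996082) was listed at 5.75 in Sdw3 and 4.47 in N18 and was not called (q = 0.201 in the authors' deposited table). Its approximate 95% interval, 0.980- to 1.69-fold, takes in no change.

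Markers of green blade tissue differed between the genotypes in the same ligular samples. Both genes of that marker list were called higher: pep1, the phosphoenolpyruvate carboxylase gene of C4 photosynthesis, was listed at 175 in Sdw3 and 35.1 in N18, and ME1, a malic enzyme gene, at 73.9 in Sdw3 and 16.7 in N18. Their summed level was 249 in Sdw3 and 51.8 in N18. Of the ligule markers, lg2 was listed at 2.95 in Sdw3 and 0.925 in N18 and was called higher, while lg1 was not called. The stem and meristem markers kn1 and gnarley1 were listed at 0 in both genotypes here. In the internode lg2 was listed at 0.612 in Sdw3 and 0.235 in N18 and was not tested. Its locus lies on chromosome 3 between 170 and 180 Mb, a stretch whose shares of called genes are given below. The part of blade or ligule tissue in the changes of the 9 genes was not tested, and in these bulk samples a different share of cells and a different RNA level per cell cannot be told apart.

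In the developing internode fewer members passed, and those that did rose in both families. Of 3 GA20-oxidase genes tested, 1 rose, 0 fell and 2 were not called; of 2 GA2-oxidase genes tested, 1 rose, 0 fell and 1 was not called. Among all 21131 genes tested there, 11.3% were called, 6.54% higher and 4.76% lower in Sdw3, against 2 of the 5 members tested. The other 4 members were not tested by the authors in this tissue. The median log2 ratio of the 3 GA20-oxidase genes was 0.39, against -0.03 for all genes tested. For the 2 GA2-oxidase genes tested the median was 2.09, which takes in the 3.75 of GRMZM2G006964, a ratio over an N18 level near 0.

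GRMZM2G060940, which fell in the ligular region, rose in the internode. Its FPKM was 17.4 in the Sdw3 and 9.55 in the N18 internode, a rise of 1.82-fold, with an approximate 95% interval of 1.51- to 2.19-fold. Its q of 0.00109 is the smallest that the authors' deposited table holds for the internode. GRMZM2G368411 was listed at 10.6 in Sdw3 and 8.06 in N18. It missed the threshold (q = 0.0667 in the authors' deposited table, where its unadjusted p is 0.0086). GRMZM2G049418 was listed at 3.18 in Sdw3 and 3.86 in N18 and was not called (q = 0.442 in the authors' deposited table).

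Of the GA2-oxidase genes, GRMZM2G152354 was the abundant one in the internode, at 18.01 in Sdw3 and 13.3 in N18. It rose 1.35-fold (q = 0.0150 in the authors' deposited table), with an approximate 95% interval of 1.13- to 1.61-fold. The size of that increase ranked 1122nd among the 1370 genes called higher in the internode that have a ratio. GRMZM2G006964 was listed at 1.02 in Sdw3 and 0.0754 in N18. The ratio of these values is 13.5, but it rests on an N18 level near 0. The gene missed the threshold (q = 0.115, unadjusted p = 0.0189 in the authors' deposited table). Its approximate 95% interval ran from 3.11- to 58.3-fold, which is narrower than that p implies for this gene. With 1 added to both values its log2 ratio was 0.91 in place of 3.75.

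The other 3 GA2-oxidase genes were listed under an FPKM of 1 in the internode. GRMZM2G022679 was listed at 0.986 in Sdw3 and 0.803 in N18, GRMZM2G031432 at 0.0984 in Sdw3 and 0.0312 in N18, and GRMZM2G177104 at 0 in Sdw3 and 0.0262 in N18. None of these 3 was tested in the internode. Blade markers were near 0 in this tissue in both genotypes, with a summed level of 0.905 in Sdw3 and 0.995 in N18, and the stem and meristem markers kn1 and gnarley1 summed to 207 in Sdw3 and 199 in N18, with 0 of them called.

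**Figure D2:**
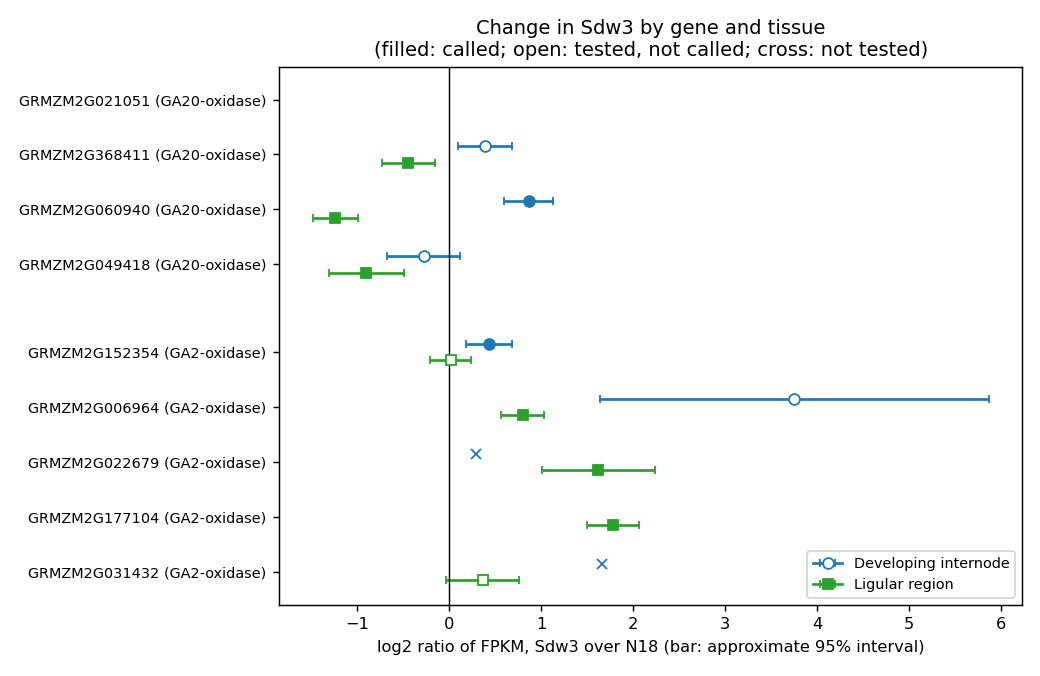
Points give the log2 ratio of FPKM, Sdw3 over N18, for each gene in the internode (blue circles) and the ligular region (green squares), with bars for approximate 95% intervals; filled symbols are called, open symbols tested but not called, and crosses not tested. In the ligular region the GA20-oxidase genes lie between -1.24 and -0.44 and the GA2-oxidase genes between 0.02 and 1.78.

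Whether the change in Sdw3 differed between the tissues was tested as the ligular log2 ratio minus the internode log2 ratio, an approximate normal test adjusted by Benjamini-Hochberg over 20070 genes. Of these genes 17.8% passed, and 9.13% passed with the ligular ratio below the internode ratio. Among the 5 members tested in both tissues, 3 passed, all with the ligular ratio below the internode ratio. For GRMZM2G060940 the ratio was -1.24 in the ligular region and 0.86 in the internode, a difference of -2.10 ± 0.19 (approximate SE). It was called in both tissues, lower in the ligular region and higher in the internode, a combination found for 1.1% of the 20099 genes tested in both. For GRMZM2G368411 the difference was -0.83 ± 0.21 (approximate SE).

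For GRMZM2G006964 the difference was -2.95 ± 1.09 (approximate SE), with ratios of 0.80 in the ligular region and 3.75 in the internode. Both ratios were above 0, and the difference no longer passed with a larger standard error. The differences of GRMZM2G049418 (-0.62, approximate 95% interval -1.19 to -0.05) and GRMZM2G152354 (-0.41, approximate 95% interval -0.75 to -0.07) did not pass after adjustment.

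**Figure D3:**
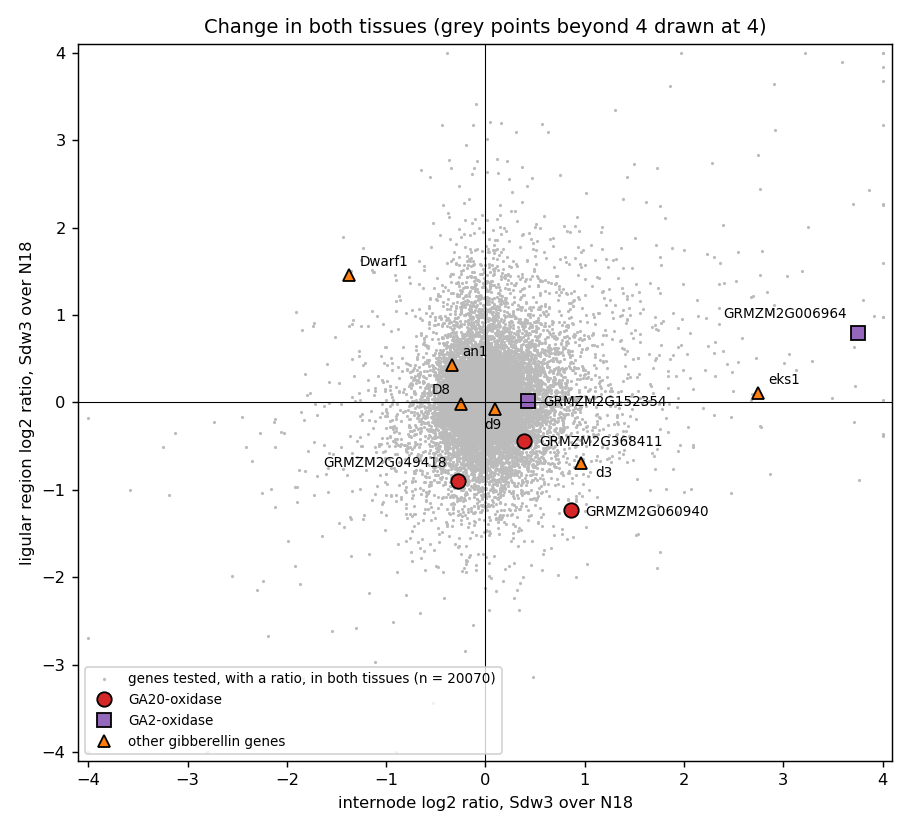
Each grey point is one of 20070 genes with a ratio in both tissues, placed by its internode log2 ratio (horizontal) and ligular log2 ratio (vertical), Sdw3 over N18; red circles, purple squares and orange triangles mark GA20-oxidase, GA2-oxidase and other gibberellin genes. GRMZM2G060940 lies at 0.86 and -1.24, to the lower right of the origin, as do GRMZM2G368411 and d3.

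The members also differed in where they were found, apart from genotype. In N18 the GA2-oxidase genes GRMZM2G177104, GRMZM2G006964 and GRMZM2G031432 were listed in the ligular region at 465, 288 and 143 times their internode level, each over an internode FPKM under 0.1. In Sdw3 the ratio was 37.3 for GRMZM2G006964 and 58.4 for GRMZM2G031432, and GRMZM2G177104 has none because it was listed at 0 in the internode. For GRMZM2G152354 the ligular to internode ratio was 2.66 in Sdw3 and 3.54 in N18, and for GRMZM2G022679 it was 2.48 in Sdw3 and 0.991 in N18. In N18, for the expressed GA20-oxidase genes GRMZM2G060940, GRMZM2G368411 and GRMZM2G049418, it was 3.86, 1.72 and 1.34. In Sdw3 the ratios of those 3 GA20-oxidase genes were 0.901, 0.963 and 0.873. Their levels were thus slightly lower in the ligular region than in the internode of Sdw3, on scales set separately for each tissue and without a test.

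Summed over members, the GA20-oxidase genes came to 28.6 FPKM in the Sdw3 ligular region and 55.9 FPKM in that of N18, 1.95 times lower in Sdw3. The 5 GA2-oxidase genes summed to 136 in Sdw3 and 86.4 in N18, 1.57 times higher. The GA20-oxidase sum divided by the GA2-oxidase sum was therefore 0.211 in Sdw3 and 0.647 in N18. In the internode both sums were higher in Sdw3, at 31.1 against 21.5 in N18 for the GA20-oxidase genes and 20.1 against 14.3 in N18 for the GA2-oxidase genes. Their quotient there was 1.549 in Sdw3 and 1.505 in N18, a log2 ratio of 0.04 that became -0.96 without the most abundant member of each family. These sums have no replicate values and were not tested, and they count transcripts, not enzyme activity.

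The make-up of the GA2-oxidase sum also differed. GRMZM2G177104 made up 30.9% of it in the Sdw3 ligular region and 14.1% in that of N18, while GRMZM2G152354 made up 35.2% in Sdw3 and 54.6% in N18. In the internode GRMZM2G152354 alone held 89.6% of the sum in Sdw3 and 93.4% in N18. For the GA20-oxidase sum GRMZM2G060940 was the leading gene in all 4 groups, with 54.7% in Sdw3 and 66.0% in N18 ligular region and 55.8% in Sdw3 and 44.5% in N18 internode.

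**Figure D4:**
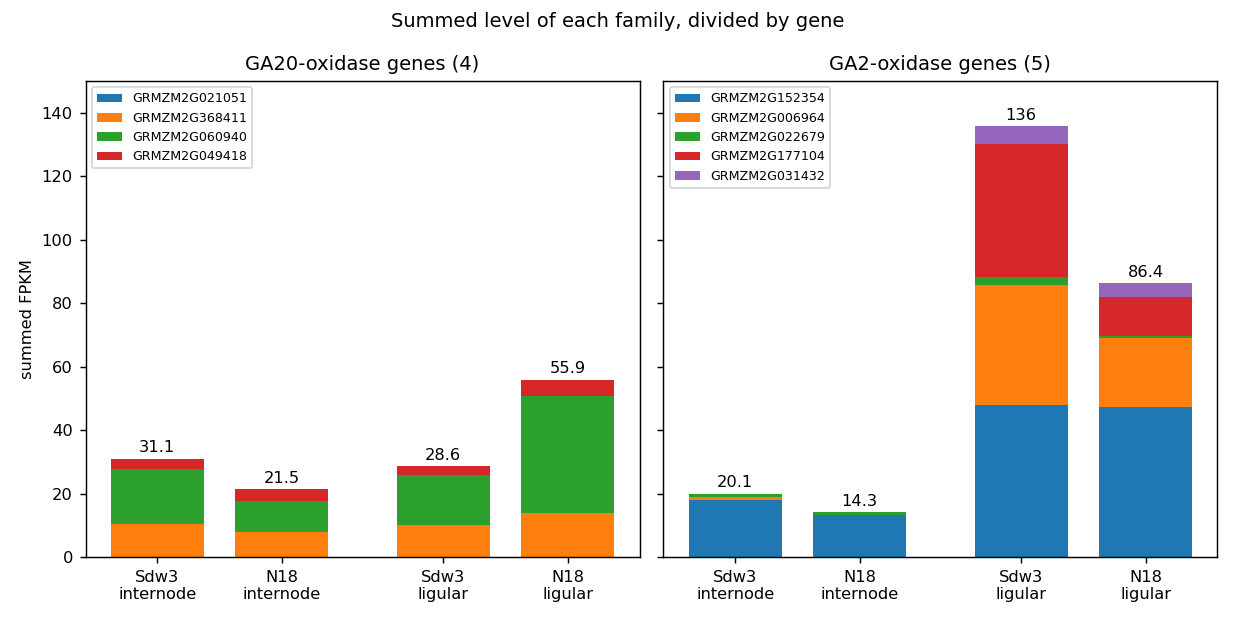
Stacked bars give the summed FPKM of the 4 GA20-oxidase genes (left) and the 5 GA2-oxidase genes (right) in Sdw3 and N18 of each tissue, coloured by gene, with the sum above each bar. In the ligular region the GA20-oxidase sum is 28.6 in Sdw3 and 55.9 in N18, and the GA2-oxidase sum is 136 in Sdw3 and 86.4 in N18.

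Of other gibberellin genes, 8 were named by the reference table. In it an1, an2 and eks1 carry names of enzymes of early synthesis, and such a name alone does not say which product a gene serves. The others were d3 and the GA3-oxidase genes Dwarf1 and ga3ox2 of the later steps, and the DELLA repressor genes D8 and d9. In the ligular region 1 of the 6 tested rose, 1 fell and 4 were not called, with a median log2 ratio of 0.04. In the internode 2 of the 6 tested rose, 0 fell and 4 were not called, with a median log2 ratio of -0.08. Over all genes tested, 26.8% were called in the ligular region and 11.3% in the internode. The genes an2 and ga3ox2 were listed at 0 in all 4 groups.

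The gene d3 (CYP88A1), whose kaurenoic acid oxidase acts before the GA20-oxidases, was listed at 65.0 in Sdw3 and 105 in N18 ligular region and at 13.7 in Sdw3 and 7.03 in N18 internode. It was called lower in the ligular region and higher in the internode, as was GRMZM2G060940, each time with the smallest q of the tissue in the authors' deposited table, and the tissue difference of its log2 ratio was -1.65 ± 0.17 (approximate SE) and passed. Dwarf1, which acts after the GA20-oxidases, was called higher in the ligular region, at 1.53 in Sdw3 and 0.557 in N18 (q = 0.0199 in the authors' deposited table). In the internode it was listed at 0.578 in Sdw3 and 1.498 in N18 and was not called; the tissue difference was 2.83 ± 0.58 (approximate SE) and passed, on values that were low in both tissues.

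For eks1, a kaurene synthase gene, the ligular values of 39.5 in Sdw3 and 36.7 in N18 were not called, and the internode values of 0.983 in Sdw3 and 0.147 in N18 were called higher (q = 0.0413 in the authors' deposited table), although eks1 is below the mean FPKM of 1 used as an alternative filter. Its tissue difference was -2.63 ± 0.82 (approximate SE) and passed. Other standard errors were tried for the members only, so the passes of d3, Dwarf1 and eks1 were not checked in that way. The early synthesis gene an1 was listed at 74.5 in Sdw3 and 55.3 in N18 ligular region and was not called in either tissue. The DELLA genes were not called: in the ligular region D8 was listed at 201 in Sdw3 and 204 in N18, and d9 at 70.3 in Sdw3 and 74.3 in N18.

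The 9 genes lie on chromosomes 2, 3, 5, 7 and 8 (B73 RefGen_v3), and none of their loci overlaps that of another gene in the tables. Of the 18 nearest tested neighbours, 1 on each side of each member, 3 were called higher and 3 lower in the ligular region, and 1 higher and 0 lower in the internode. Among all genes tested, 26.8% were called in the ligular region and 11.3% in the internode. Neither neighbour of GRMZM2G177104 was called in the ligular region: GRMZM2G100652 was listed at 25.0 in Sdw3 and 26.8 in N18, and GRMZM2G179429 at 36.2 in Sdw3 and 33.2 in N18. Beside GRMZM2G022679, GRMZM2G022253 was called higher in the ligular region, as was that member, at 27.8 in Sdw3 and 12.1 in N18. On its other side GRMZM2G022777 was not called there, at 50.2 in Sdw3 and 48.3 in N18. The nearest neighbours of GRMZM2G060940 in that tissue were GRMZM2G019956, called higher at 1.52 in Sdw3 and 0.289 in N18 (q = 0.000754 in the authors' deposited table), and GRMZM2G130076, not called at 42.2 in Sdw3 and 53.7 in N18.

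GRMZM2G368411 lies in the stretch of chromosome 3 from 170 to 180 Mb, where 36.5% of 156 ligular genes tested and 21.4% of 140 internode genes tested were called. The shares over all genes tested were 26.8% in the ligular region and 11.3% in the internode. Its nearest ligular neighbours were called in opposite directions, GRMZM2G014653 higher at 11.6 in Sdw3 and 5.14 in N18 and GRMZM2G025703 lower at 3.44 in Sdw3 and 5.65 in N18 (q = 0.00645 in the authors' deposited table).

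For the called member with the largest change in each family, the 3 genes with the most similar pattern were found by Euclidean distance over the 4 group values of log2(FPKM + 1), centred on their mean, among the 20099 genes tested in both tissues. Nearest to GRMZM2G060940 was the lipoxygenase gene lox7 (GRMZM2G070092; distance 0.227), listed at 1.78 in Sdw3 and 5.16 in N18 ligular region and at 1.95 in Sdw3 and 1.06 in N18 internode. GRMZM5G804776 (0.258) and GRMZM2G081263 (0.299) followed. Of these, GRMZM5G804776 was called lower in the ligular region (q = 0.0295 in the authors' deposited table) but not called in the internode. GRMZM2G081263 was called in neither tissue. Nearest to GRMZM2G177104 was thi1 (GRMZM2G018375; distance 0.358), a gene of thiamine synthesis, listed at 153 in Sdw3 and 39.0 in N18 ligular region and at 1.74 in Sdw3 and 1.65 in N18 internode. AC206425.3_FG002 (0.361) and GRMZM2G064096 (0.515) followed. GRMZM2G177104 itself was not tested in the internode, so other genes left untested there were not among those compared with it. A likeness over 4 values is a description of those values alone.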

How the data were processed

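Per the submitters' processing notes, the tools were CASAVA 1.8 with bcl2fastq, TopHat2 2.1.0, and Cufflinks, and the build was B73 RefGen_v3; for the Cufflinks program, its version and the annotation the entry is: not given in the sources used here. The deposited FPKM are the authors' combined values, 1 per genotype and tissue, with the unit taken from the column layout. The score is the authors' test statistic, and the deposited p-value and its q-value (adjusted p) are the authors' own within each tissue, per the file headers. Benjamini-Hochberg adjustment of their p-values over the 21131 internode and 22721 ligular genes tested gave the deposited q-values within 5.26e-07.

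Log2 ratios were computed from the FPKM without a pseudocount, since some deposited ratios hold spreadsheet error text. Approximate standard errors are the ratio divided by the score, scaled to the authors' p-values (factors 1.737 and 1.705; 98.97% and 98.18% of genes then had the authors' call, which is no independent check). The tissue difference test was run on simulated data first. The smallest p the authors give is 5e-05. Depth per library is unknown.

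Members and lists were chosen with earlier results of these data known. Of 9 fixed other gibberellin identifiers, 3 had no matching name in the reference table (a later maize assembly) and were left out; ga3ox2 and eks1 were added after the files were seen. Named were all members, called list genes, and the 3 nearest patterns to the most changed called member per family; neighbouring genes, tissue markers and the other list genes were named outside that rule. A further planned stem marker is not reported here. If replicates were not separate plants, the p-values measure technical spread only. Scripts ran in Python 3.11.15 with pandas 2.3.3, numpy 2.4.6 and scipy 1.17.1, and figures were drawn with matplotlib 3.10.9.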

Additional observations from a re-analysis of the deposited data

Results flagged for a closer look

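Of the 5 members tested in both tissues, 3 had a change in Sdw3 that differed between the ligular region and the internode by the approximate test of the difference, in which 17.8% of 20070 genes passed. The ligular minus internode log2 ratio was -2.10 for GRMZM2G060940, -0.83 for GRMZM2G368411 and -2.95 for GRMZM2G006964, the last of which rests on an internode FPKM of 0.0754 in N18. Of the other gibberellin genes, d3 (-1.65), Dwarf1 (2.83) and eks1 (-2.63) also differed. For Dwarf1 and eks1 at least 1 genotype was listed under an FPKM of 1 in a tissue. Other standard errors were not tried for d3, Dwarf1 or eks1.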

How the results depend on the processing

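No paired analysis was possible because the tables hold 1 combined value per genotype and tissue; for the same reason no library could be left out, and the planned leave-one-out and block alternatives were not run. The count of ligular members called, 6, lay between 5 and 6 under all alternatives. The count of internode members called, 2, was 1 at an adjusted p under 0.01 and 1 with a minimum change of 1.5-fold, but 3 at an adjusted p under 0.1 and 3 when adjusted over both tables together. Other gibberellin genes called, 2 in each tissue, were 1 in each at an adjusted p under 0.01, and in the internode 1 when adjusted over genes with a mean FPKM of at least 1 and 1 without the added genes, but 3 at an adjusted p under 0.1 and 3 when adjusted over both tables together. Without the most abundant member of each family, the log2 ratio of the internode GA2-oxidase sums was 1.17 in place of 0.49, and that of the GA20-oxidase over GA2-oxidase quotient was -0.96 in place of 0.04 in the internode, turning its sign, and -1.72 in place of -1.62 in the ligular region. The log2 ratio of the GA20-oxidase sums was then -0.55 in place of -0.97 in the ligular region and 0.21 in place of 0.54 in the internode. For the ligular GA2-oxidase sums it was 1.17 in place of 0.65. Of 60 recomputed log2 ratios of members, 0 of those called changed sign and 5 moved beyond their approximate 95% interval (for genes not tested, which have none, by over 0.1), all 5 with a pseudocount at low levels. The tissue difference of GRMZM2G006964 no longer passed with a standard error taken straight from the deposited p-value or enlarged by the planned factor; those of GRMZM2G060940 and GRMZM2G368411 passed under all 3 alternatives. The cause of these changes was not tested.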
